A study of Mus musculus with 2 samples.

Results

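The 31 genes described here encode the enzymes, transporters and regulators of glycolysis, together with classical targets of the hypoxia-inducible factors. They were chosen by gene symbol in the feature list of both count matrices, and all 31 were found among 55357 listed genes. The material was mid-colon of 7-week-old mice, kept free of specific pathogens and given 3% dextran sulfate sodium (DSS), which damages the gut epithelium, for 6 days. Whole-tissue cell suspensions were captured as 10x droplets in 2 libraries, which are numbered repeats of a single DSS group. No untreated sample was used here, and every comparison is between kinds of cell in inflamed colon. Separate animals are not stated for the libraries, so each p-value speaks only of how these 2 samples vary, and that variation may be technical.

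Glycolysis splits glucose into pyruvate in the cytosol, and lactate dehydrogenase can turn pyruvate into lactate for export. When oxygen is short, prolyl hydroxylases stop marking the HIF-1 alpha protein for destruction, and the stabilised factor raises transcription of glucose transporters, most glycolytic enzymes and genes of hypoxic adaptation. The colon surface lies next to a lumen almost without oxygen, and neutrophils are known to rely on glycolysis for energy. Hif1a is regulated largely at the protein level, so its mRNA is not a measure of its activity.

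The deposited matrices held 6597 and 9611 barcodes in libraries 1 and 2, with 76622643 and 94204110 unique molecular identifiers (UMIs, each standing for 1 captured mRNA molecule). After filtering, 5419 and 8425 cells remained, with medians of 7938 and 6459 UMIs per cell. Library 1 lost 13.3% of its barcodes at the mitochondrial limit, against 5.04% in library 2. The libraries shared 18 barcodes, 11 of them among the cells. Clusters were named from marker genes, with the 31 genes held out of the clustering, and every class name stands for a cluster that resembles the type ("epithelial-like" and so on). In all, 10 classes were tested, and 232 and 256 cells stayed unnamed. In the text, paired values are library 1 followed by library 2.

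The promoter windows of 5 genes that the results turn on are shown because the core letters of the hypoxia response element recur in them. The windows span 250 bases before to 50 bases after the RefSeq transcription start (build GRCm38.p6), 5′ to 3′ on the gene's strand. Capitals mark the letters ACGTG and the variant GCGTG, and where these lie on the opposite strand, CACGT and in the variant CACGC. Slc2a1 encodes the glucose transporter GLUT1 (chr4:119108495-119108794, plus strand), Hk2 hexokinase 2 (chr6:82774405-82774704, minus strand) and Bnip3 a mitophagy receptor (chr7:138909457-138909756, minus strand). Higd1a encodes a mitochondrial hypoxia-induced protein (chr9:121857747-121858046, minus strand) and Slc16a3 the lactate exporter MCT4 (chr11:120948817-120949116, plus strand).
Slc2a1: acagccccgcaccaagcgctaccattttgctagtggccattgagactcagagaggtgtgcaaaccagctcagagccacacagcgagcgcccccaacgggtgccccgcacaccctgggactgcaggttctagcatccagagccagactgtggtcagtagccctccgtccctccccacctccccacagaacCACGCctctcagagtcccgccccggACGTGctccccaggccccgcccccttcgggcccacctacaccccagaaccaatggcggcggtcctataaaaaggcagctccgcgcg
Hk2: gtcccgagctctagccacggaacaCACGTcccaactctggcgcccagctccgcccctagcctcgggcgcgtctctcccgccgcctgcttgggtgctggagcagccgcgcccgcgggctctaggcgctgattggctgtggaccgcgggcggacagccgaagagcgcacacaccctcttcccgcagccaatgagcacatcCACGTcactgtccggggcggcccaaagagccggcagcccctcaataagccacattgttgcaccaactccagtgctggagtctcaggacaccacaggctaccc
Bnip3: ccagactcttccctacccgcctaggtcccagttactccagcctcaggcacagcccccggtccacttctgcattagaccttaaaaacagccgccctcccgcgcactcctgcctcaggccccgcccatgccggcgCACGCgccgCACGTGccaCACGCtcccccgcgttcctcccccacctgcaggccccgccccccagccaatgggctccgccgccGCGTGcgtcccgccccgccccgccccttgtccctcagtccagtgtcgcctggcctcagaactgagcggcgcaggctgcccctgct
Higd1a: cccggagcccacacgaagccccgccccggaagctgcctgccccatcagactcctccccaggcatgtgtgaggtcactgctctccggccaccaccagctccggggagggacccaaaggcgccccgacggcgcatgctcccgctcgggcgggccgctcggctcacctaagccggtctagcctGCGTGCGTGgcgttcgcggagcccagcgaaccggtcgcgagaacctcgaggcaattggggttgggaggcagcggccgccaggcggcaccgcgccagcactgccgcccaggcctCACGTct
Slc16a3: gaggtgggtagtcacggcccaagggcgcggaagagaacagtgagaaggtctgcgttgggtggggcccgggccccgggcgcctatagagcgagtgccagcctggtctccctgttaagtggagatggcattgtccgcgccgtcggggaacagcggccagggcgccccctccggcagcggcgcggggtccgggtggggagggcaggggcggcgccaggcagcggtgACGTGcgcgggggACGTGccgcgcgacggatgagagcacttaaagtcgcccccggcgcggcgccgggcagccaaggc
Of the 31 genes, 29 had a window in the RefSeq table, and 27 of these (93.1%) held at least 1 match, against 12628 of 27025 genes in the whole table (46.7%). Because some genes had several windows, the same search was counted over windows, and 33 of 39 member windows (84.6%) held a match, against 14380 of 32851 windows (43.8%). The palindrome CACGTG counts on both strands, and the run GCGTGCGTG in Higd1a holds overlapping matches. Tpi1 and Gpi1 had no match in their windows. The list was chosen to hold targets of hypoxia-inducible factors, and the windows of all genes were not matched to it for base composition. The higher share is therefore not a result about these cells. A match describes letters only and says nothing about binding.

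Together the 31 genes made up 0.810% and 0.809% of all UMIs in the cells of libraries 1 and 2. The share differed by class, at 0.99% and 1.17% in epithelial cells, 0.59% and 0.56% in neutrophils, 0.60% and 0.62% in mononuclear phagocytes, 0.44% and 0.46% in T, NK and innate lymphoid cells (T NK ILC), and 0.16% and 0.18% in plasma cells. Within single cells, the median was 101 and 100.5 member UMIs per 10000 in epithelial cells, 57.8 and 54.3 in neutrophils and 10.8 and 13.1 in plasma cells. Epithelial cells thus carried the highest share in both libraries, and plasma cells the lowest. Gapdh, the glyceraldehyde-3-phosphate dehydrogenase, was the most abundant member with 219017 UMIs, followed by Ldha, the main lactate dehydrogenase subunit of anaerobic glycolysis, with 142877. P4ha2, a collagen prolyl hydroxylase, was the rarest with 523 UMIs.

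Levels are given in CPM, the UMI counts of a gene per 1000000 UMIs of a class, after TMM scaling, which sets sums of different composition on a common scale. Since 3′ UMIs count molecules and not fragments, these levels need no correction for transcript length. Scaling matters most for neutrophils, whose TMM factors were 0.466 and 0.506. A few transcripts dominated that class, with S100a8 alone at 154434 and 140747 plain CPM. Under plain library size the median of all genes in neutrophils moved by -1.13 on the log2 scale relative to the other classes, so each neutrophil count is given under both scalings.

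Against the mean of the other 9 classes, 23 members were higher and 3 lower in epithelial cells, by edgeR's quasi-likelihood test with adjusted p under 0.05. Of all 13838 genes tested, 36.8% were higher and 20.7% lower there. In mononuclear phagocytes 21 members were higher and 2 lower (29.3% and 15.3% of all genes). In neutrophils 20 were higher and 2 lower (28.7% and 27.5% of all genes), but 11 and 12 under plain library size (13.1% and 53.8%). The median over the 27 members with counts in every class was 1.48 on the log2 scale in epithelial cells, 1.04 in neutrophils and 0.74 in phagocytes, beside medians of 0.09, -0.15 and 0.08 over all genes. With plain library size, the median over all members was 1.41 in epithelial cells, -0.11 in neutrophils and 0.56 in phagocytes. Medians over all genes were then 0.03, -1.28 and -0.09. The order of neutrophils and phagocytes in the member median thus depended on the scaling. In neutrophils the median of all genes moved with that of the members. In each of these classes the member median lay above the median of all genes under both scalings.

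Under TMM scaling endothelial cells came next, with 16 members higher and 4 lower (20.8% and 11.7% of all genes). With plain library size they had 19 and 3 (30.9% and 5.63% of all genes). Their median over all members was then 0.85, above that of phagocytes and neutrophils. Smooth muscle cells and pericytes had 7 higher and 3 lower (22.1% and 13.3% of all genes). Under plain library size they had 13 and 1 (31.7% and 5.49% of all genes). Fibroblasts had 7 higher and 11 lower (26.9% and 17.2% of all genes), or 7 and 6 under plain library size (31.9% and 11.5%). Members were mostly lower or not called in the remaining classes. In T NK ILC 4 were higher and 12 lower (29.7% and 17.6% of all genes). The counts were 9 and 7 under plain library size (43.0% and 12.1% of all genes) and 2 and 15 with DESeq2's size factors. Mast cells had 2 higher and 11 lower (10.8% and 6.97% of all genes), or 5 and 4 under plain library size (17.8% and 2.57%). In B cells 22 members were lower (14.3% of all genes), and the only higher one (16.8% of all genes) was Pdk1, the kinase that shuts pyruvate dehydrogenase, at 1.09 ± 0.28 (SE). Plasma cells had 17 lower and none higher (17.2% and 19.6% of all genes).

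**Figure D1:**
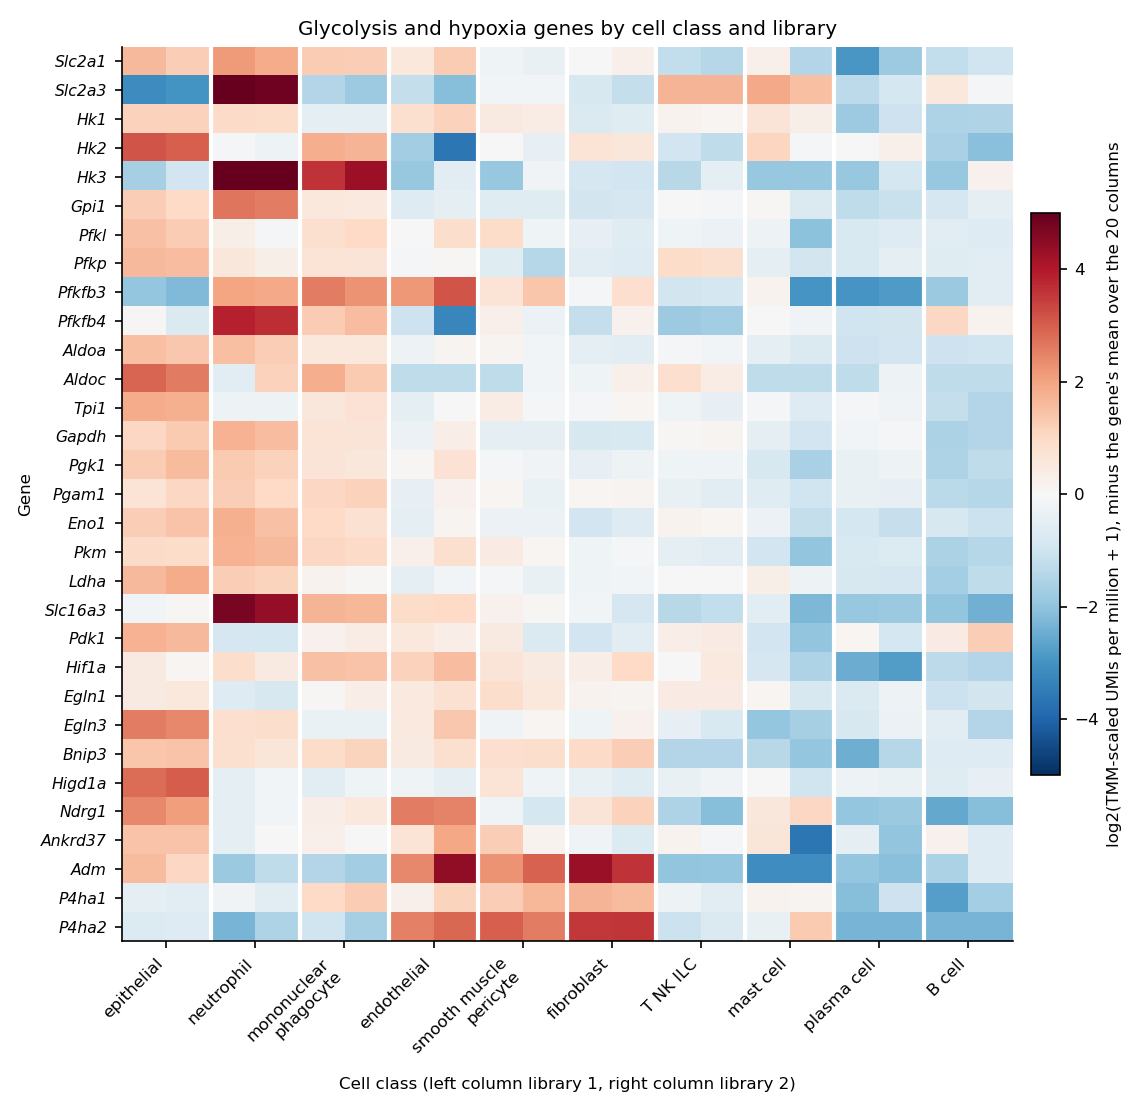
Each row is a gene and each pair of columns a cell class, with library 1 on the left and library 2 on the right. Colour gives the log2 level (TMM-scaled CPM plus 1) minus the gene's mean over the 20 columns, capped at 5. Higd1a, Hk2 and Egln3 are red in the epithelial columns and Slc2a3, Hk3, Slc16a3 and Pfkfb4 in the neutrophil columns, while P4ha2 and Adm are red in endothelial, mural and fibroblast columns.

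A member was said to have a leading class where its highest class passed the test against each other class, with the largest p adjusted over all genes. By edgeR, 14 of 31 members had one, 8 in epithelial cells and 6 in neutrophils, beside 34.7% of all genes tested, 9.28% led by epithelial cells and 8.4% by neutrophils. Across the alternative settings that gave a fit, the total ranged between 14 and 19, and neutrophils led 4 under plain library size. The other 17 members were at their highest level in a class that did not pass against all the rest.

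The epithelial leaders were spread along the pathway. Higd1a, which encodes a small protein of the respiratory chain supercomplexes, had 1440.1 and 1676 CPM in epithelial cells and 330.2 and 179 in smooth muscle cells and pericytes, the next class (log2 difference 2.65, edgeR adjusted p 3.02e-08). Hk2, which phosphorylates glucose in the first step, had 618 and 558 in epithelial cells and 246 and 228 in phagocytes (log2 difference 1.31, edgeR adjusted p 1.58e-05). In both genes the epithelial values of the 2 libraries lay above every other class. Tpi1, the triose phosphate isomerase, stood at 596 and 564 in epithelial cells and 242 and 266 in phagocytes (1.19, edgeR adjusted p 1.51e-05). Egln3, a prolyl hydroxylase of HIF-alpha that is itself induced by hypoxia, had 89.1 and 77.9 in epithelial cells and 20.4 and 37.8 in endothelial cells (1.39, edgeR adjusted p 7.52e-05). The libraries did not overlap between the paired classes in either gene.

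Smaller epithelial leads were found for Aldoc, an aldolase best known from brain, at 16.8 and 13.4 against 7.41 and 4.98 in phagocytes (1.32, edgeR adjusted p 0.00759). Pfkp, the platelet-type phosphofructokinase, had 248 and 237 in epithelial cells and 154 and 143 in T NK ILC (0.71, edgeR adjusted p 0.00105). Ldha had 1385 and 1605 in epithelial cells and 1059 and 977 in neutrophils (0.56, edgeR adjusted p 0.0308). Pdk1 stood at 61.8 and 56.7 in epithelial cells and 24.2 and 43.6 in B cells (0.73, edgeR adjusted p 0.0388). The leads of Pfkp and Pdk1 were not called under plain library size, with edgeR adjusted p of 0.078 and 0.39. That of Pdk1 was also lost by DESeq2 (adjusted p 0.153) and in edgeR with DESeq2's size factors (0.131), a mitochondrial limit of 10% (0.0533) or no doublets removed (0.0642). The lead of Ldha was lost by DESeq2 (adjusted p 0.0643) and in edgeR with DESeq2's size factors (0.121), no doublets removed (0.179) or mixed subclusters kept (0.0632).

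The neutrophil leaders were the transporters Slc2a3 and Slc16a3 and the enzymes Pfkfb4, Hk3, Gpi1 and Pkm. Slc2a3, the high-affinity glucose transporter GLUT3, had 505 and 435 CPM in neutrophils and 55.7 and 42.2 in mast cells (log2 difference 3.25, edgeR adjusted p 4.72e-10). Slc16a3 had 1112 and 858 in neutrophils and 131 and 127 in phagocytes (2.92, edgeR adjusted p 1.05e-10). For both genes every class other than neutrophils lay well under the lower neutrophil library. Pfkfb4, a bifunctional enzyme that sets the level of the phosphofructokinase activator fructose 2,6-bisphosphate, had 142 and 124 in neutrophils and 22.6 and 27.1 in phagocytes (2.38, edgeR adjusted p 4.75e-06). Hk3, a hexokinase known from myeloid cells, had 184 and 156 in neutrophils and 44.9 and 71.7 in phagocytes (1.60, edgeR adjusted p 5.60e-05), but its lead was not called under plain library size (0.72, adjusted p 0.0536).

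Gpi1, the glucose-6-phosphate isomerase, had 1266 and 1164 CPM in neutrophils and 473 and 398 in epithelial cells (1.48, edgeR adjusted p 8.94e-07). Its lead was still called but smaller under plain library size (0.51, edgeR adjusted p 0.0426). Pkm, the pyruvate kinase, had 1503 and 1360.4 in neutrophils and 899 and 854 in phagocytes (0.71, edgeR adjusted p 0.0137). The lead of Pkm depended on the scaling, since plain library size put endothelial cells highest by 0.04 with no call. Gapdh (2812 and 2469.8 in neutrophils, 1740.4 and 2081 in epithelial cells) and Slc2a1 (242 and 198 in neutrophils, 169.9 and 129 in epithelial cells) were also at their highest level in neutrophils, but edgeR gave adjusted p of 0.0897 and 0.0507 for the lead. Both directions turned under plain library size, which put Gapdh lower in neutrophils than in epithelial cells by a call (-0.52, edgeR adjusted p 0.0281) and Slc2a1 without one (-0.42).

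Several targets of hypoxia-inducible factors were at their highest level outside epithelium and neutrophils, none with a leading class. Adm, the vasodilator peptide adrenomedullin, had 172 and 105 CPM in fibroblasts and 44.5 and 185 in endothelial cells, and the ranges overlap. Ndrg1, a stress-responsive differentiation gene, had 421 and 404 in endothelial cells and 384 and 306 in epithelial cells. P4ha1 and P4ha2, the catalytic subunits of collagen prolyl 4-hydroxylase, had 102 and 94.5 and 57.7 and 58.9 in fibroblasts. Hif1a itself had 728 and 697 in phagocytes and 588 and 772 in endothelial cells, values that overlap. Pfkfb3, the isoenzyme of Pfkfb4 with high kinase activity, had 167 and 329 in endothelial cells, 218 and 173 in phagocytes and 143 and 138 in neutrophils, but 8.79 and 7.06 in epithelial cells.

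The isoform families were compared as shares of the family's UMIs, a measure that no scaling between classes can change. Intervals on shares are 95% Clopper-Pearson intervals per library and cover counting error only. Among the glucose transporters, Slc2a3 (chr6:122727809-122801640, minus strand) made up 67.6% (64.7 to 70.4) and 68.7% (66.4 to 70.9) of 1084 and 1727 Slc2a1 plus Slc2a3 UMIs in neutrophils. In T NK ILC the share was much the same, at 68.0% (64.7 to 71.2) and 70.6% (67.8 to 73.3) of 822 and 1081 UMIs. Both classes thus held mainly Slc2a3, although the summed level differed. In phagocytes Slc2a3 was 3.26% (2.22 to 4.59) and 2.52% (1.94 to 3.20) of 952 and 2542 UMIs, and in epithelial cells 0.421% (0.275 to 0.617) and 0.680% (0.459 to 0.969) of 6172 and 4414 UMIs. Those classes used Slc2a1 (chr4:119108711-119137983, plus strand) almost alone.

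Smooth muscle cells and pericytes, with Slc2a3 at 21.4% and 23.4%, and fibroblasts, at 12.1% and 7.89%, lay between. Endothelial cells, at 6.67% (1.40 to 18.3) and 1.82% (0.38 to 5.22) of 45 and 165 UMIs, overlapped phagocytes. Mast cells had 46.3% (30.7 to 62.6) and 68.8% (41.3 to 89.0), from 41 and 16 UMIs. Shares in B and plasma cells rest on at most 36 UMIs per library and are too imprecise to place. With each cell thinned to 2000 UMIs, a Slc2a3 UMI was seen in 31% and 32% of neutrophils, 9.86% and 8.93% of T NK ILC and 0.18% and 0.17% of epithelial cells (64.0% and 55.9%, 23.6% and 21.6%, and 1.29% and 2.46% unthinned). Median depth before thinning was 6809.5 and 5694 UMIs in neutrophils, 5236 and 4690 in T NK ILC and 18006 and 22797 in epithelial cells. Thinning left out 30 and 64 shallower neutrophils, and 30 and 34 epithelial cells. Free RNA also gives UMIs, and its part in these shares was not tested. Within neutrophils, unthinned, 32.6% and 22.7% of cells held UMIs of both transporters, 31.4% and 33.2% of Slc2a3 only and 18.3% and 14.5% of Slc2a1 only.

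The hexokinases showed 3 main patterns. Hk2 (chr6:82725025-82774454, minus strand) made up 82.9% and 81.6% of hexokinase UMIs in epithelial cells, 74.2% (72.4 to 76.0) and 67.1% (65.9 to 68.2) in phagocytes, and 76.5% (68.4 to 83.3) and 73.8% (68.5 to 78.7) in fibroblasts. Hk1 (chr10:62268855-62379908, minus strand), the housekeeping form bound to mitochondria, made up 82.8% (71.3 to 91.1) and 95.1% (90.6 to 97.9) in endothelial cells and 64.2% and 66.5% in T NK ILC, and was a small majority in smooth muscle cells and pericytes (52.9% and 56.9%). Hk3 (chr13:55005985-55021385, minus strand) was the main form only in neutrophils among the 10 classes, at 51.1% (46.7 to 55.4) and 48.8% (45.4 to 52.2), with Hk1 at 30.4% and 33.1% and Hk2 at 18.5% and 18.1%. Phagocytes held Hk3 as a minor form, at 13.6% (12.2 to 15) and 21.1% (20.2 to 22.1), and these intervals of the libraries do not overlap. With no doublets removed the neutrophil Hk3 share was 36.7%, against a mean of 49.9% with doublets removed.

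Thinned to 2000 UMIs, 16.5% and 12.4% of neutrophils, 6.78% and 11.6% of phagocytes and 0.00% and 0.26% of epithelial cells had a Hk3 UMI (41.5% and 34.3%, 25.9% and 33.1%, and 0.41% and 2.54% unthinned). Within phagocytes, 46.7% and 38.7% of cells held UMIs of Hk2 only, 6.81% and 9.77% of Hk3 only and 19.1% and 23.4% of both. Within neutrophils the order was turned round, at 10.3% and 8.40% for Hk2 only, 33.9% and 28.6% for Hk3 only and 7.57% and 5.71% for both.

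Phosphofructokinase and aldolase varied less between classes. Pfkp was the larger part of Pfkl plus Pfkp in most classes, with 83.7% (82.1 to 85.3) and 83.3% (81.9 to 84.7) in T NK ILC, 73.2% and 74.2% in neutrophils, 71.3% and 73.4% in epithelial cells and 67.5% and 64.2% in phagocytes. Smooth muscle cells and pericytes were the exception, at 43.9% (30.7 to 57.6) and 49.0% (34.8 to 63.4) of 57 and 51 UMIs. Pfkl, the liver-type subunit, thus made up about as much as Pfkp there. Aldoa, the common aldolase, held nearly all aldolase UMIs, and Aldoc stayed at or under 1.44% in each of the 10 classes, including the epithelial class that led its level (1.44% and 1.28%).

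**Figure D2:**
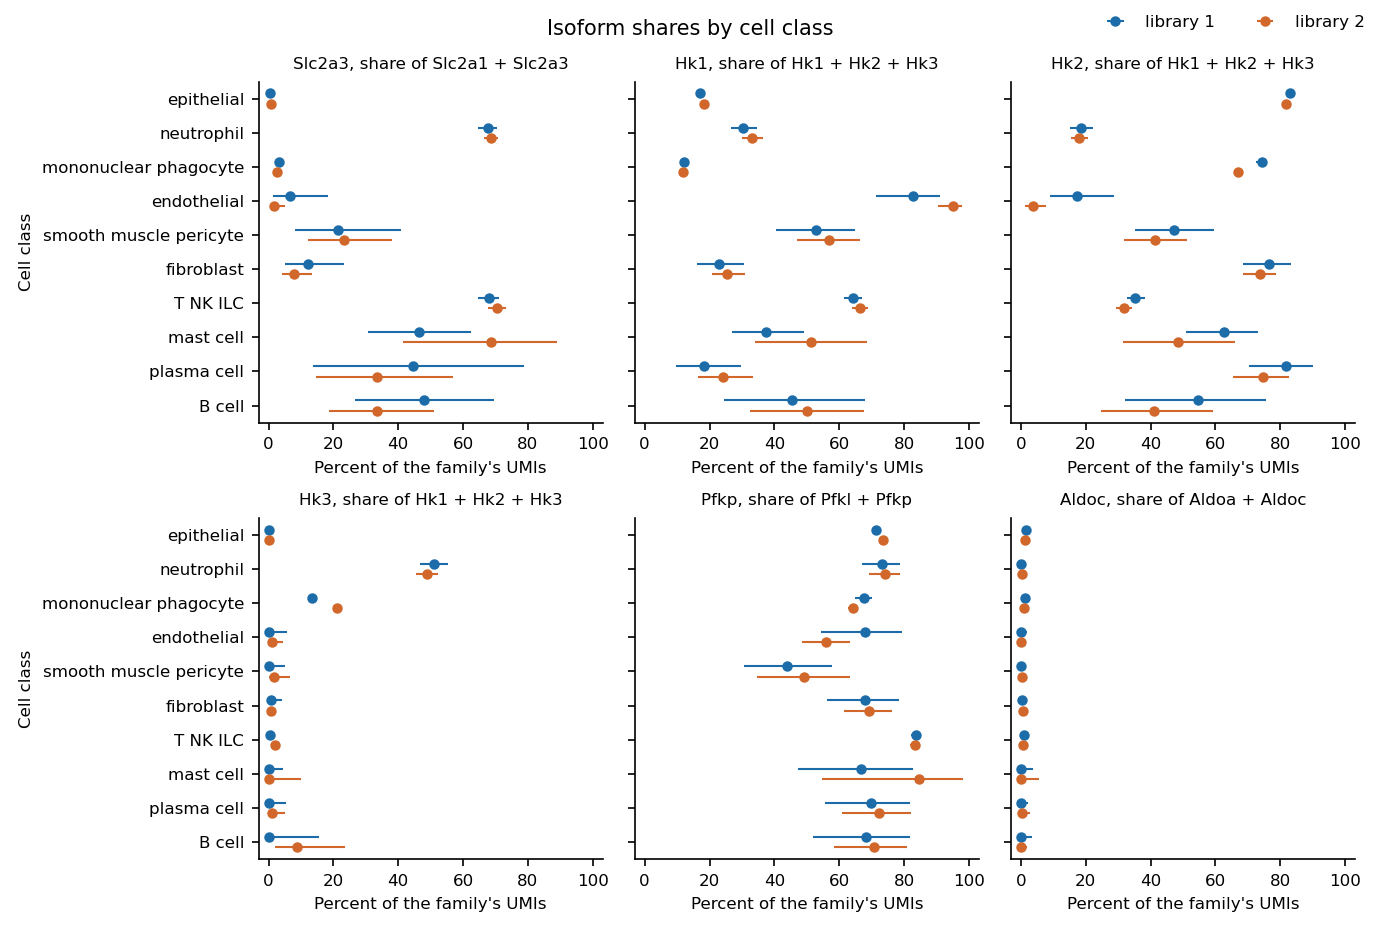
Each panel gives 1 gene's share of its family's UMIs in percent, by cell class, with library 1 in blue, library 2 in orange and bars for the 95% Clopper-Pearson interval. Slc2a3 stands near 68% in neutrophils and T NK ILC and under 4% in epithelial cells and phagocytes, Hk1 is highest in endothelial cells and Hk3 in neutrophils, while Aldoc lies near 0 in every class.

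Neutrophils and mononuclear phagocytes, the main myeloid cells of the tissue, differed in the direction of the change from step to step. By edgeR 14 members were higher and 8 lower in neutrophils than in phagocytes, beside 23.2% and 29.2% of all genes. The counts were 6 and 15 under plain library size, beside 8.64% and 53.8% of all genes. That scaling moved the median of all genes by -0.87. Slc2a3 was higher by 6.96 ± 0.21 on the log2 scale (SE, edgeR adjusted p 7.63e-16), with 505 and 435 CPM in neutrophils against 4.42 and 3.29 in phagocytes. The difference was 2.92 ± 0.19 for Slc16a3, 2.38 ± 0.25 for Pfkfb4, 2.10 ± 0.19 for Gpi1, 1.60 ± 0.27 for Hk3 and 1.42 ± 0.17 for Hk1. These 6 genes were also called higher under plain library size, at 6.08, 2.04, 1.5, 1.22, 0.72 and 0.54. Lower in neutrophils were Hk2, with 66.9 and 57.9 against 246 and 228 in phagocytes (-1.93 ± 0.22, edgeR adjusted p 2.03e-07), P4ha1 (-1.55 ± 0.24), Pdk1 (-1.24 ± 0.29), Egln1, the main oxygen-sensing HIF prolyl hydroxylase (-0.98), Tpi1 (-0.91) and Pfkl (-0.81). Egln1 and Pfkl moved to -0.64 and -0.40 without library 2, and Pfkl was not called by DESeq2 (adjusted p 0.062). With no doublets removed, Pdk1 and Tpi1 both stood at -0.41 with no edgeR call (adjusted p 0.178 and 0.0699). The direction of Slc2a1, Aldoa, Pgk1, Eno1 and Pkm turned under plain library size, so no direction is given for them. S100a8, on the neutrophil marker list, was at 4082 and 2852 plain CPM in phagocytes and 187 and 267 in epithelial cells. Its source there and its part in these differences were not tested.

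Against epithelial cells, 8 members were higher and 15 lower in neutrophils by edgeR, beside 28.4% and 40.6% of all genes. Under plain library size the split was 6 and 23 (16.5% and 58.9% of all genes), and with DESeq2's size factors 11 and 13. Higher were Slc2a3 (9.17 ± 0.23, edgeR adjusted p 1.31e-17), Hk3 (8.28 ± 0.38), Slc16a3 (4.65 ± 0.21), Pfkfb4 (4.26 ± 0.27), Pfkfb3 (4.13 ± 0.31) and Gpi1 (1.48 ± 0.18). Lower were Adm (-3.28 ± 0.65, edgeR adjusted p 1.43e-04), Hk2 (-3.24 ± 0.23), Higd1a (-3.19 ± 0.25), Pdk1 (-2.66 ± 0.27), Ndrg1 (-2.53 ± 0.23) and Aldoc (-2.25 ± 0.44, or -4.36 without library 2). Neutrophils and epithelial cells, the classes with all the called leads, thus differed at Hk2, lower in neutrophils, and at Hk3, Slc2a3, Slc16a3 and both Pfkfb genes, higher in neutrophils. Of the 22 mitochondrial pyruvate and citric acid cycle enzymes listed beside the members, 2 were higher and 18 lower in neutrophils than in epithelial cells. Against the mean of the other classes, all 22 were higher in epithelial cells, beside 36.8% of all genes, with a median of 1.42.

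Within the epithelium, members made up 1.23% and 1.40% of UMIs in colonocyte-like cells, 0.479% and 0.546% in goblet-like cells and 0.508% and 0.703% in undifferentiated cells. Epithelial cells that took no subclass name (380 and 385) held 1.34% and 1.69%, so a high share was not confined to cells named colonocyte. Their summed epithelial markers were at 32408 and 34743 plain CPM, against 27584 and 30866 in colonocyte-like cells. Cell cycle genes summed to 95.2 and 149 in them and 70.7 and 126 in colonocyte-like cells. Whether the unnamed cells are colonocytes was not tested. In the fit of epithelial subclasses, 28 of 29 tested members were higher in colonocytes (950 and 410 cells) than in undifferentiated crypt cells (231 and 265 cells) by edgeR and none was lower, also at an unadjusted p under 0.05 and by DESeq2. Of all 13511 genes, 39.1% were higher and 37.8% lower. The median was 2.32 over the members and 0.00 over all genes. Under plain library size 26 were higher and 1 lower (19.5% and 59.9% of all genes), with a shift of -0.99 in the median of all genes. Slc2a3 and Hk3 were too rare to test, and P4ha2 differed by -0.14 without a call. Levels in subclass fits have their own TMM scale and are not comparable with levels across classes.

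Ndrg1, Adm and Bnip3 had the widest gaps. Ndrg1 had 994 and 652 CPM in colonocytes against 30.1 and 62.4 in undifferentiated cells (log2 difference 4.20 ± 0.33, edgeR adjusted p 1.22e-06). Adm had 73.8 and 41.2 in colonocytes against 1.57 and 4.57 (4.11 ± 0.37, edgeR adjusted p 3.44e-06). Bnip3 had 209 and 213 against 10.4 and 15.8 in undifferentiated cells (4.01 ± 0.16, edgeR adjusted p 2.72e-08). In each of these genes the lower colonocyte library was above the higher undifferentiated one, and plain library size still gave 3.21, 3.15 and 3.03. Slc2a1 had 401 and 313 in colonocytes against 22.0 and 28.9 in undifferentiated cells (3.80 ± 0.18, edgeR adjusted p 5.55e-08). Slc16a3 had 89.7 and 91.4 against 5.10 and 10.2 (3.58 ± 0.20, edgeR adjusted p 1.38e-07), and Pfkfb3 27.5 and 17.0 against 1.08 and 2.58 (3.57 ± 0.38, edgeR adjusted p 1.07e-05). The entry of glucose and the exit of lactate were therefore among the genes with the widest gap.

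Member enzymes that carry out the steps between glucose entry and lactate exit showed smaller differences. Hk2 had 1147 and 885 CPM in colonocytes against 96.9 and 165 in undifferentiated cells (2.98 ± 0.24), Pfkp 512 and 477 against 63.5 and 91.8 (2.69), and Pkm 1901 and 1569 against 264 and 397 (2.42). Ldha had 2661 and 2989 in colonocytes against 467 and 677 (2.32). Outside these steps, Higd1a had 2764 and 3355 in colonocytes against 276 and 466 (3.08 ± 0.19). The middle of the pathway differed least, with Pgk1, the phosphoglycerate kinase, at 1.53, Gapdh at 1.38, Tpi1 at 1.32 and Pgam1, the phosphoglycerate mutase, at 0.67 ± 0.12. Pgam1 was called lower under plain library size (-0.31), and Egln1, at 0.86, stood at -0.12 without a call under that scaling. Hif1a had 535 and 427 in colonocytes against 88.4 and 120.3 in undifferentiated cells (2.20).

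The subclasses also differed in depth and mitochondrial share. Colonocytes had medians of 12456 and 12904 UMIs with 9.11% and 7.10% mitochondrial UMIs, and undifferentiated cells medians of 28933 and 34295 UMIs with 4.57% and 3.82%. The part of these differences in the result was not tested, though the count was 28 higher and none lower also when cells over 10% mitochondrial UMIs were left out. Some colonocyte subclusters came mostly from library 1 (368 and 8 cells, 130 and 17, 98 and 5), and leaving them out again gave 28 higher and none lower.

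Goblet-like cells numbered 148 and 121. Against undifferentiated cells, 5 of 29 members were higher in goblet cells and 1 was lower by edgeR, beside 11% and 5.57% of all genes. Higher were P4ha2 (1.96 ± 0.46, edgeR adjusted p 0.0167), Pfkfb4 (1.79 ± 0.29), Ndrg1 (1.60 ± 0.30), P4ha1 (1.01 ± 0.21) and Hk2 (0.77 ± 0.23), and lower was Pgam1 (-0.58 ± 0.12). Against colonocytes, 28 members were lower in goblet cells and only P4ha2 was higher, at 2.10 ± 0.52 (edgeR adjusted p 0.00437), beside 36.4% lower and 39.1% higher of all genes. P4ha2 had 6.36 and 3.89 CPM in goblet cells, and its difference to colonocytes was 1.28 without library 1.

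Pathway genes outside the 31 were counted in the comparison of colonocytes with undifferentiated cells, where 39.1% of all genes were higher and 37.8% lower. Of 20 other glycolysis and lactate genes tested, 13 were higher in colonocytes, among them the enolase Eno3 (4.77), the pyruvate dehydrogenase kinase Pdk4 (3.92) and the hexokinase Hkdc1 (2.68). The 2 lower ones were Ldhb, the lactate dehydrogenase subunit of oxidative tissues (-2.66), and Pfkm, the muscle-type phosphofructokinase (-1.93). Of 27 other hypoxia response genes, 23 were higher and 3 lower, with Ak4 at 5.42, Mxi1 at 3.74 and Epas1, which encodes HIF-2 alpha, at 3.01. Of 22 mitochondrial pyruvate and citric acid cycle enzymes, 8 were higher (among them Cs 2.14 and Ogdh 1.23) and 10 lower (among them Idh3a -2.13, Fh1 -1.47 and Dlat -1.0), near the shares of all genes, with a median of -0.01.

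Hexokinase shares also differed between epithelial subclasses. Hk1 made up 15.3% (14.7 to 16.0) and 17.4% (16.3 to 18.4) of hexokinase UMIs in colonocytes, and 34.8% (32.4 to 37.2) and 27.9% (26.3 to 29.5) in undifferentiated cells. Goblet cells, at 18.4% and 18.7%, lay near colonocytes in this share. Pfkp made up 74.9% and 75.7% of Pfkl plus Pfkp in colonocytes, 57.2% and 58.4% in goblet cells and 52.6% and 64.6% in undifferentiated cells.

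**Figure D3:**
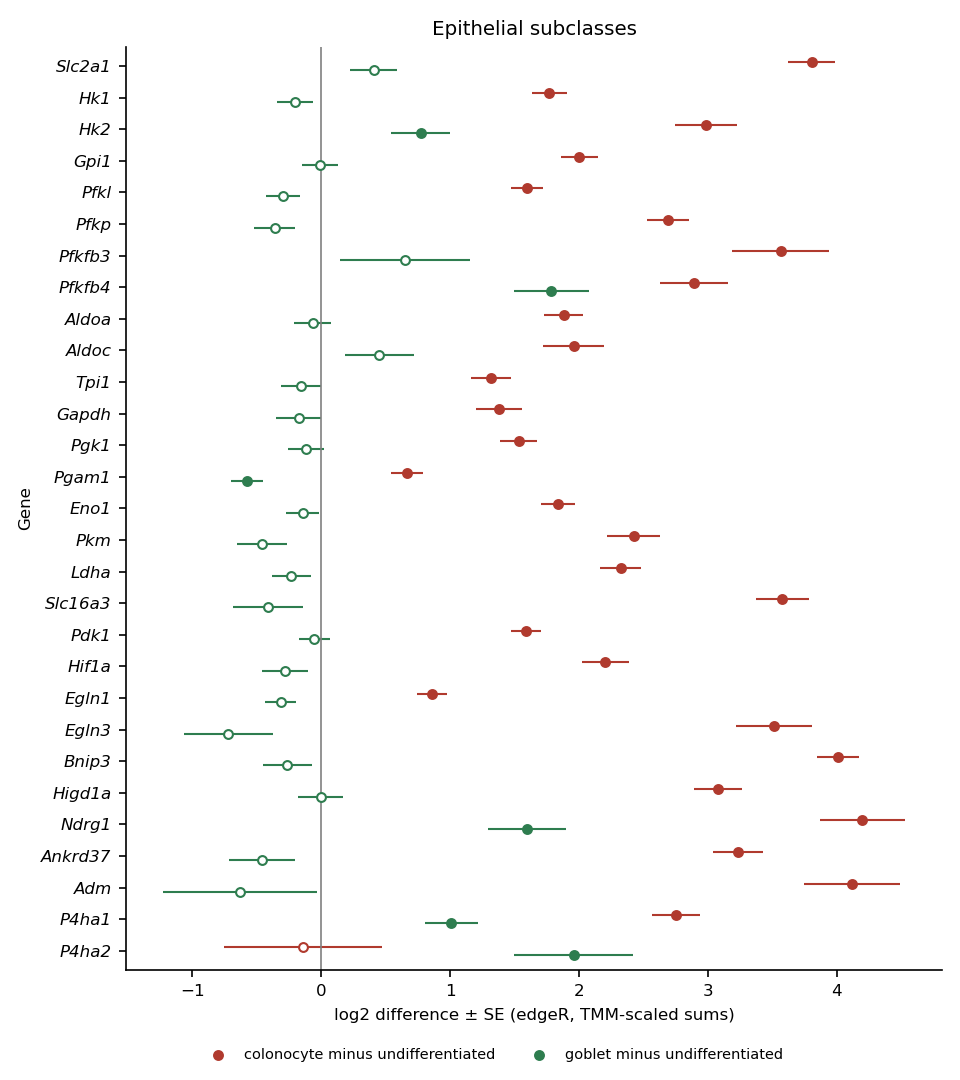
Points give the log2 difference between epithelial subclasses for each tested gene with its SE, filled where the edgeR adjusted p is under 0.05. Colonocytes minus undifferentiated cells (red) lie right of 0 for every gene but P4ha2, with Ndrg1, Adm and Bnip3 above 4, and goblet minus undifferentiated cells (green) lie near 0 for most genes.

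Among mononuclear phagocytes, inflammatory monocyte-like cells (192 and 803 cells) held the highest levels of most members. Against macrophage-like cells (157 and 474 cells), 23 of 29 tested members were higher and 1 lower by edgeR, beside 14.1% and 11.7% of 10951 genes. The median was 1.26 over the members and -0.04 over all genes. The split was 20 and 1 under plain library size (7.91% and 23.5% of all genes), which moved the median of all genes by -0.33. Slc16a3 had 207 and 194 CPM in inflammatory monocytes against 41.8 and 40.0 in macrophages (2.28 ± 0.17, edgeR adjusted p 1.22e-06), and Slc2a1 207 and 185 against 51.4 and 42.1 (2.08 ± 0.18, edgeR adjusted p 3.29e-06). Hif1a had 1112 and 1008 against 357 and 324 in macrophages (1.64 ± 0.16, edgeR adjusted p 1.02e-05). In these genes the libraries were close to each other and the subclasses did not overlap. Egln3 (2.18 ± 0.35), Pfkfb3 (1.88 ± 0.29), Ankrd37, a small ankyrin-repeat hypoxia target (1.86 ± 0.36), and Bnip3 (1.71 ± 0.19) were also higher. Ndrg1 was higher by 1.69 ± 0.31, but by 1.13 and 2.61 when either library was left out.

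Pfkfb4 was the exception, with 12.6 and 14.5 CPM in inflammatory monocytes against 29.6 and 37.8 in macrophages (-1.32 ± 0.23, edgeR adjusted p 8.37e-04). The 2 isoenzymes thus moved in opposite directions between the same cells. Of 22 other hypoxia response genes tested, 9 were higher and none lower, beside the 14.1% and 11.7% of all genes, with Hilpda, a lipid droplet protein, at 2.54, Ero1a at 1.97 and Ddit4 at 1.92. Of the 22 mitochondrial enzymes, 1 was higher and 2 were lower. Summed genes of dissociation stress were at 7842 and 7985 plain CPM in inflammatory monocytes and 11661 and 12735 in macrophages. The difference of Hk3 (0.98) was 0.17 with coarser clusters and 0.27 with the members kept in the clustering, neither of them called.

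Monocyte-like cells numbered 250 and 866. Against macrophages 9 members were higher and none lower, also at an unadjusted p under 0.05 and by DESeq2, beside 14.4% and 11.4% of all genes, but 5 and 1 when no doublets were removed. Slc16a3 (1.76 ± 0.17), Slc2a1 (1.53 ± 0.18), Pfkp (1.23 ± 0.18), Hif1a (1.15 ± 0.16) and Ndrg1 (1.15) had the widest gaps, and edgeR gave each an adjusted p under 0.05. With no doublets removed, Hif1a was at 0.40 and Ndrg1 at 0.50, neither called (edgeR adjusted p 0.143 and 0.34), and Ndrg1 was also lost under plain library size (0.0845) and with the members kept in the clustering (0.0963). Genes of the neutrophil marker list summed to 17138 and 10419 plain CPM in monocytes, against 1753 and 1121 in macrophages. S100a8 alone was at 11487 and 6796 plain CPM in monocytes. The source of these transcripts and their part in the differences were not tested. Inflammatory monocytes exceeded monocytes in 17 members and fell short in 1, beside 7.86% and 9.04% of all genes, with Ankrd37 at 1.42, Bnip3 at 1.31 and Hk3 at 1.28 higher and Pfkfb4 at -0.95 lower.

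Dendritic-like cells (64 and 116 cells) were low in most members. Against the mean of the other phagocyte subclasses, 19 were lower and 2 higher by edgeR, beside 19.1% and 17.7% of all genes. Slc16a3 had 13.2 and 14.5 CPM (-2.88 ± 0.22, edgeR adjusted p 3.26e-07), Slc2a1 29.3 and 14.5 (-2.38 ± 0.22), and Bnip3 differed by -2.43 ± 0.27. The higher genes were Slc2a3 and Pfkp, and in both the share of the isoform was above that of the other subclasses. Slc2a3 had 11.7 and 12 in dendritic cells, 0 and 2.21 in inflammatory monocytes, 1.93 and 3.09 in macrophages and 4.93 and 2.30 in monocytes (2.28 ± 0.57, edgeR adjusted p 0.00643). Its share of the transporter pair was 28.6% (13.2 to 48.7) and 45.2% (27.3 to 64.0) in dendritic cells, from 28 and 31 UMIs. Of these UMIs, 8 and 14 were of Slc2a3. Pfkp made up 83.8% (76.4 to 89.7) and 88.3% (83.4 to 92.2) of Pfkl plus Pfkp in dendritic cells, 76.3% and 72.6% in monocytes, 58.8% and 56.1% in inflammatory monocytes and 58.4% and 59.3% in macrophages. The Pfkp level was 160 and 168 CPM in dendritic cells and 144 and 134 in inflammatory monocytes. Monocytes had 141 and 125, and macrophages 46.9 and 63.8. T NK ILC markers summed to 592 and 485 plain CPM in dendritic cells, against 211 and 161 in inflammatory monocytes. Macrophages had 110 and 84.6, and monocytes 63.7 and 64.5. The source of these transcripts and their part in the differences were not tested.

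**Figure D4:**
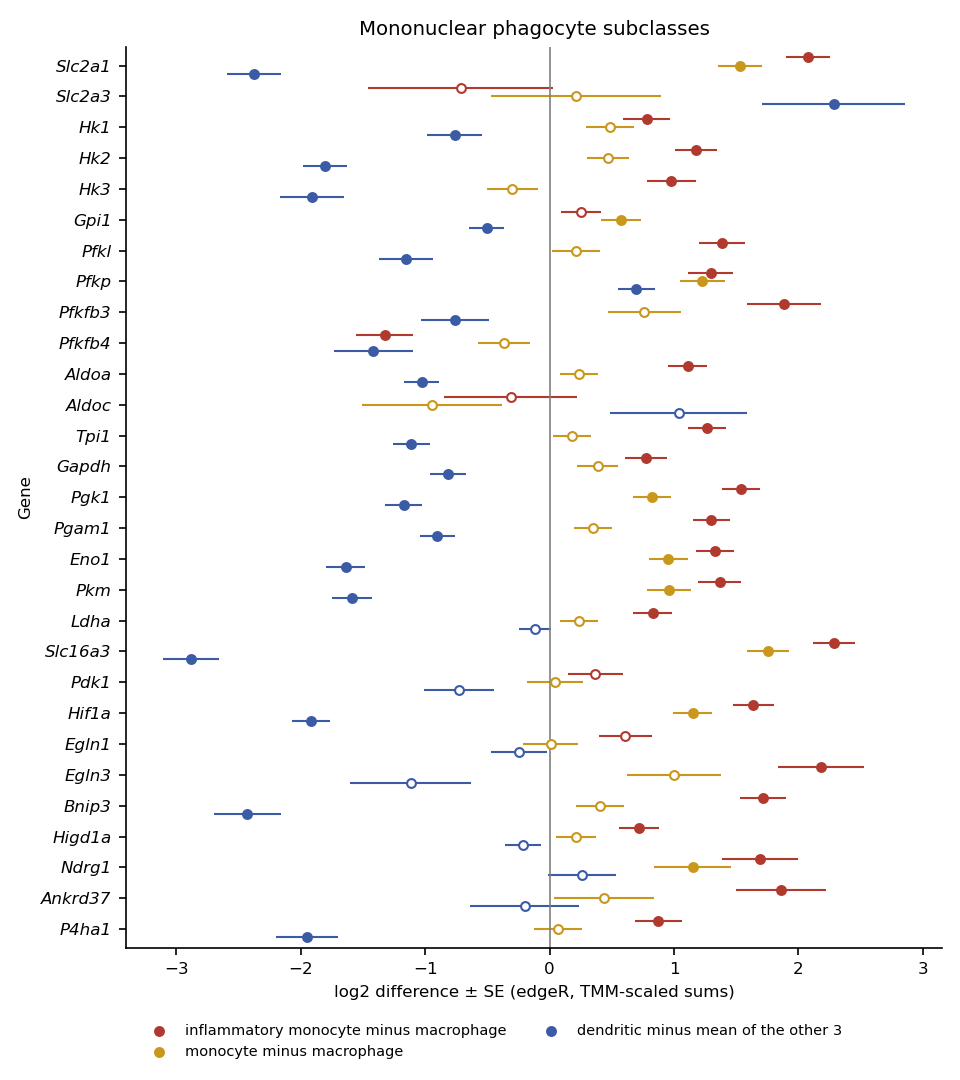
Points give the log2 difference with its SE for each gene in 3 comparisons of phagocyte subclasses, filled where the edgeR adjusted p is under 0.05. Slc16a3 and Slc2a1 lie above 1.5 in both monocyte comparisons with macrophages (red and yellow) and under -2 in dendritic cells against the other subclasses (blue), while Pfkfb4 is under 0 in all 3.

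Neutrophils were split by their granule genes, which fade as the cells mature. Granule-gene-low cells (117 and 192) and granule-gene-high cells (190 and 314) differed in both directions, with 6 of 28 tested members higher and 6 lower in the low cells by edgeR, beside 14% and 10.3% of 6106 genes. The split was 11 and 3 under plain library size (21.1% and 7.8% of all genes) and 1 and 2 by DESeq2. Bnip3 had 72.2 and 46.0 CPM in granule-gene-low cells against 17.5 and 18 in granule-gene-high cells (1.66 ± 0.29, edgeR adjusted p 0.00204). Gpi1 had 359 and 358 against 763 and 693 in granule-gene-high cells (-1.02 ± 0.15, edgeR adjusted p 8.47e-04), and Ldha 303 and 339.8 against 667 and 570.0 (-0.93 ± 0.16). Those 3 genes were also called by DESeq2, and the libraries did not overlap in any of them, but Ldha was not called with a mitochondrial limit of 10% (edgeR adjusted p 0.0737).

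The other calls rested on edgeR alone. P4ha1 (2.15 ± 0.44), Ankrd37 (1.93 ± 0.56), Pfkl (1.29 ± 0.31), Slc2a1 (0.79 ± 0.18) and Higd1a (0.69) were higher in granule-gene-low cells, and Hk3 (-0.70), Slc2a3 (-0.65 ± 0.19), Gapdh (-0.63) and Pgk1 (-0.61) were lower. The difference of Slc2a3 was -0.32 with 1 library left out. As a share of the transporter pair, Slc2a3 was 53.1% (45.8 to 60.2) and 48.2% (41.1 to 55.4) in granule-gene-low cells and 72.2% (68.3 to 75.9) and 75.0% (71.5 to 78.2) in granule-gene-high cells. The Hk3 share of hexokinase was 37.2% and 36.8% in the low cells and 52.4% and 51.5% in the high cells. Granule-gene-low cells had medians of 4007 and 3439 UMIs, against 8942 and 7012.5 in granule-gene-high cells. Their summed dissociation-stress genes were at 11205 and 11740 plain CPM, against 4140 and 4202. The part of depth or stress genes in these results was not tested.

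Dividing lymphocytes (159 and 364 cells) were set against the mean of the other T NK ILC subclasses. Of 27 tested members 12 were higher and 2 lower by edgeR, beside 20.7% and 13.1% of 10485 genes, with medians of 0.29 over the members and 0.01 over all genes. Gapdh had 1675 and 1573 CPM in dividing cells, and was higher by 0.89 ± 0.07 (edgeR adjusted p 1.31e-09). Tpi1 (0.87 ± 0.12), Pgk1 (0.73), Eno1, the common enolase (0.70), and Pkm (0.69) moved with it, and Ankrd37 was higher by 1.41 ± 0.23. NK and innate lymphoid cells, part of that mean, were low, with Gapdh at 438 and 316. The T cell subclass led by Tnfrsf4 and Il10, described below, overlapped dividing cells in Pkm (513 and 582 against 584 and 485). Tpi1 (219 and 257 against 309 and 207) and Pgk1 (272 and 297 against 311 and 257) overlapped too. Gapdh (1394 and 1456) and Eno1 (222 and 214) were lower there. Members made up 0.596% and 0.691% of UMIs in that subclass, and 0.586% and 0.526% in dividing cells. The lower genes were Ndrg1 (-0.66 ± 0.20) and Slc2a3 (-0.47 ± 0.13, edgeR adjusted p 0.00880), and neither was called by DESeq2. Of the 22 mitochondrial enzymes, 7 were higher in dividing cells and none lower.

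A subclass of T cells led by Tnfrsf4 and Il10 (180 and 224 cells) scored highest for regulatory T cell markers, but of its 2 clusters only the smaller (88 and 35 cells) was led by Foxp3, the defining factor, so it is not given that name. Without a test, its Hif1a level was the highest of the 5 lymphoid subclasses, at 815 and 1188 CPM, beside 488 and 618 in CD4 T cells and 215 and 311 in CD8 T cells. Hk2 had 62.7 and 85.8 in that subclass and 34.4 and 24.8 in CD4 T cells. Its share of hexokinase was 40.1% (32.7 to 47.9) and 48.1% (41.3 to 55.0) there and 32.6% (23.4 to 43.0) and 28.1% (22.3 to 34.5) in CD4 T cells, and the intervals overlap in library 1 and not in library 2.

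Fibroblasts held mainly Hk2 and endothelial cells mainly Hk1. By edgeR 3 members were higher and 15 lower in fibroblasts than in endothelial cells, beside 13% and 11.9% of all genes, and 1 and 17 under plain library size. Hk2 had 113 and 104 CPM in fibroblasts against 20.4 and 4.83 in endothelial cells (3.43 ± 0.36, edgeR adjusted p 1.12e-07). Hk1 went the other way, by -1.69 ± 0.21 (edgeR adjusted p 1.63e-06), as did Pfkfb3 (-2.30 ± 0.33), Ndrg1 (-1.58 ± 0.23) and Slc16a3 (-1.53 ± 0.26). Ankrd37 (-2.24 ± 0.48) and Pfkl (-1.18 ± 0.32) were lower too, but by -0.98 and -0.49 without library 2. P4ha1 was higher in fibroblasts by 0.80 ± 0.26 (edgeR adjusted p 0.0237), or by 0.46 and 1.40 with either library left out. The call of Pfkfb4 (2.80 ± 1.01, edgeR adjusted p 0.0467) turned to -0.24 without library 2.

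Each stromal class held clusters that differed in these genes, given here as plain CPM of the cluster and without a test. Of the fibroblasts, the Mmp13-led cluster (52 and 69 cells) had 138 and 160 for Slc2a1 and 339 and 216 for Adm, and the Col3a1-led cluster (30 and 69 cells) 0 and 13 and 81 and 48.5. Bnip3 was at 117 and 172 in the Mmp13-led cluster and 39.3 and 26.8 in the Col3a1-led one, while P4ha1 overlapped, at 117 and 111 and at 125 and 99.6. Of the endothelial cells, the Plvap-led cluster (37 and 80 cells) had 375 and 517 for Pfkfb3 and 1063 and 1190 for Hif1a, and the Ccl21a-led cluster, whose leading genes include the lymphatic marker Lyve1 (30 and 52 cells), 21.6 and 126 and 395 and 356. Ndrg1 ran the other way, at 423 and 390 in the Plvap-led and 703 and 812 in the Ccl21a-led cluster. Of the mural cells, the Rgs5-led pericyte cluster (13 and 23 cells) had 182 and 277 for Adm and 1011 and 1082 for Hif1a, and the Myh11-led muscle cluster (26 and 43 cells) 3.69 and 6.31 and 361 and 204.

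**Figure D5:**
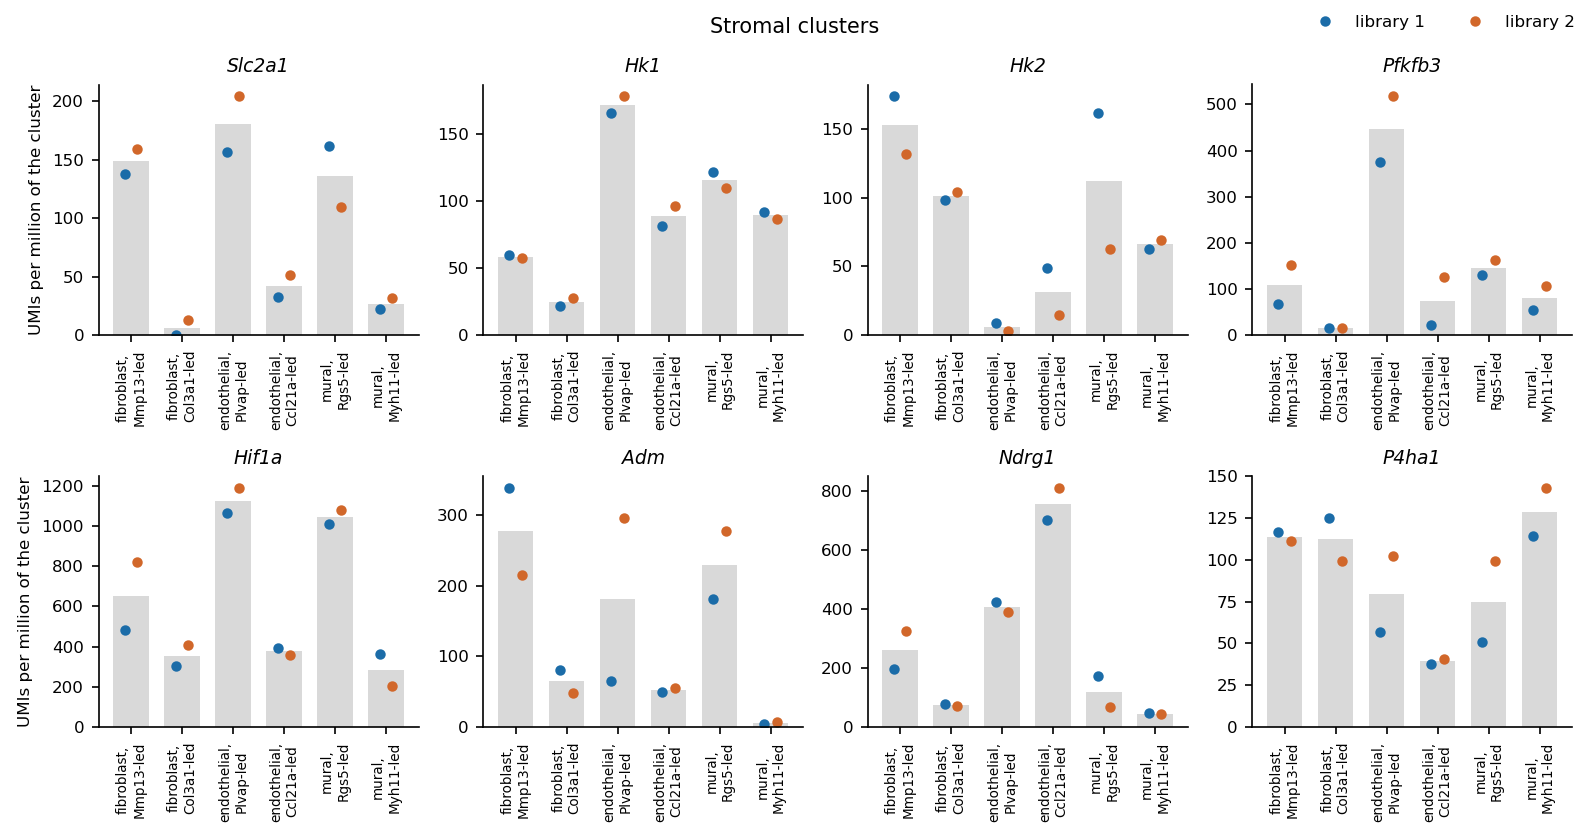
Each panel gives a gene's CPM in 6 stromal clusters, with grey bars for the mean of the 2 libraries and a point for each library. Slc2a1, Hif1a and Adm stand higher in the Mmp13-led, Plvap-led and Rgs5-led clusters than in the other cluster of each class, whereas Ndrg1 is highest in the Ccl21a-led endothelial cluster.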

How the data were processed

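Cells of DSS-treated mouse mid-colon were profiled by 3′ single-cell RNA sequencing in 2 libraries. The authors deposited raw UMI counts for each gene in each barcode. Cell Ranger made the counts, version 7.0.0 per the file headers and 8.0.0 per the submitters' processing notes, which also name build mm10 (gene annotation: not given in the sources used here). The capture aimed at 5000 cells with a V3 kit and the library reagents were v2, per the labels' protocols, and these do not match. Gene coordinates are from GENCODE M21 (GRCm38).

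Barcodes were kept with at least 200 genes and under 20% mitochondrial UMIs. The top Scrublet scorers, 302 and 702 barcodes at a rate set by library size, were removed as doublets. Cells were clustered in scanpy 1.11.5 (2000 variable genes, 30 principal components, 15 neighbours, Leiden resolution 1.0) without the members and the related pathway lists. Classes were named from marker lists by a rule set after the clusters were seen, which asked for at least 3 markers at 10 CPM. Subclusters led by at least 3 markers of another class (100 and 46 cells) were left out of the sums. UMI counts were summed per class and library.

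The sums were tested with edgeR 4.0.16 in R 4.3.3 (TMM, filterByExpr, quasi-likelihood F test, library as block). Each p was adjusted by Benjamini-Hochberg over all genes of the fit, with a threshold of 0.05, and DESeq2 1.42.0 served as an alternative. The standard error is the log2 difference divided by the square root of F. Fits held 13838 genes across classes (9 residual degrees of freedom), 13511 in epithelium (2), 10951 in phagocytes (3), 6106 in neutrophils (1) and 10485 in lymphocytes (4). The libraries number the same suspension in every class, so a library pairs the sums of different classes and was the block. Hk3 and Slc2a3 were not tested in epithelium, Adm and P4ha2 in phagocytes, Adm, Aldoc and P4ha2 in neutrophils, and Adm, Hk3, P4ha2 and Pfkfb4 in lymphocytes.

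On simulated counts, the test of neutrophils against the other classes recovered 46.9% of genes changed by 1 and 95.1% of those changed by 2 on the log2 scale (11480 genes). The test of colonocytes recovered 32% and 97% (10487 genes), that of granule-gene-low neutrophils 30% and 97% (2393 genes), that of inflammatory monocytes 23% and 95% (8024 genes) and that of dividing lymphocytes 58% and 99% (8050 genes). The simulation had a fixed spread for every gene and no library effect. It drew only on well-counted genes and changed a small share of them, evenly up and down. In the data a far larger share was called, so these rates need not hold for the tests above. All 31 members are accounted for. Values per library are given for isoform families, members with a leading class and up to 6 members with the largest change in each direction of a comparison, and genes of the other lists are named up to 3 per direction. The members and lists were chosen with earlier results of these data known. Aldoa was counted by its main gene ID, and a second ID with 6 UMIs was not used. Reads of the retrogene Eno1b, with 716 UMIs (1.90% of Eno1), may be shared with Eno1. Cells thinned to 2000 UMIs were used for shares of cells with a UMI.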

Additional observations from a re-analysis of the deposited data

How the results depend on the processing

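The alternatives below change 1 choice at a time; plain library size, mixed subclusters kept and colonocyte subclusters mostly of 1 library left out were chosen after seeing the data, and the cause of each change was not tested. Under plain library size, the count of members against the mean of the other classes was 11 higher and 12 lower in neutrophils, 9 and 7 in T NK ILC, 5 and 4 in mast cells, 13 and 1 in smooth muscle cells and pericytes, 6 lower in fibroblasts, 4 lower in phagocytes and 26 lower in plasma cells. Between classes it was 6 higher and 15 lower for neutrophils against phagocytes, 23 lower against epithelial cells, 1 higher for fibroblasts against endothelial cells, 1 lower for colonocytes, 1 lower for monocytes and 11 and 3 for granule-gene-low neutrophils. Shares of all genes under this scaling stand with the results above. Where not given there, 20.8% of all genes were lower in phagocytes, 38.0% in plasma cells and 22.6% in monocytes against macrophages. Against phagocytes plain library size reversed Pgk1 (-0.26), Eno1 (-0.14), Slc2a1 (-0.12), Aldoa (-0.040) and Pkm (-0.18) in neutrophils. It also reversed Slc2a1 (-0.42) and Pkm (-0.22) against epithelial cells, and Egln1 (-0.12) and Pgam1 (-0.31) in colonocytes. With DESeq2, mast cells had 4 higher, phagocytes 6 lower, neutrophils 4 lower, granule-gene-low neutrophils 1 higher and 2 lower and dividing cells 0 lower. With its size factors in edgeR, mast cells had 4 higher, phagocytes 4 lower and T NK ILC 2 higher. With no doublets removed, there were 4 lower in phagocytes, 1 lower in neutrophils, 1 lower in smooth muscle cells and pericytes, 2 higher in T NK ILC, 5 lower in neutrophils against phagocytes, 5 higher and 1 lower in monocytes and 2 lower in granule-gene-low neutrophils. The neutrophil shares of Slc2a3 and Hk3 were then 65.0% and 36.7%, against 68.1% and 49.9%, and Ndrg1 in neutrophils against phagocytes reversed to 0.52. At Leiden resolution 0.5, fibroblasts had 3 higher and 17 lower and smooth muscle cells and pericytes 14 and 1. With at least 500 genes per cell, fibroblasts had 3 higher, mast cells 4 higher and monocytes 1 lower, and smooth muscle cells and pericytes, with fewer than 20 cells in a library, could not be fitted. With the mitochondrial limit at 10%, mast cells had 1 higher, granule-gene-low neutrophils 2 and 2 and dividing cells 1 lower. Without the replicate block, no count moved by over 1.5 times, and B cells had 20 lower against 22. Leaving out either library left no residual degrees of freedom, so it gave values with no test: the median of members ranged between 2.19 and 2.61 for colonocytes, 1.13 and 1.32 for inflammatory monocytes, 0.11 and 0.78 for endothelial cells, and Pfkfb4 in fibroblasts against endothelial cells between -0.24, a reversal, and 7.33.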

Other observations

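Some epithelial subclusters and a cluster that took no class name also held these genes, and their plain CPM are given without a test. An epithelial subcluster led by Ido1 and Ly6g (36 and 215 cells) had 1071 and 1171 CPM of Hk2 and 599.9 and 536 of Hif1a. A subcluster led by Ly6g and Cxcl5 (199 and 19 cells) had 1116 and 1399.9 of Hk2 and 839 and 588 of Hif1a. Pfkfb3 had 66.1 and 60.5 CPM in a colonocyte subcluster led by Atp12a and Nos2 (78 and 89 cells), and 7.24 and 83.7 in the subcluster led by Ly6g and Cxcl5, with 19 cells behind the second value. A shallow cluster over all cells that took no class name (193 and 246 cells) had 218 and 250.4 CPM of Hk2 and 749 and 581 of Higd1a.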
